A study of Mus musculus with 8 samples.

Results

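Granzyme B (Gzmb) and the protease inhibitors Serpinb6b and Serpina3g were followed in alloreactive T cells with and without costimulation blockade. The 3 genes were taken from the authors' deposited list of 409 probe sets as those carrying exactly these symbols, 1 probe set each, out of 289 genes that could be named and 44951 features measured. The authors had selected that list on these arrays for a difference between blockade and untreated cells, so the blockade differences below describe how the members were found and carry no test. Responders were CFSE-labelled splenocytes of C57BL/6 mice, 200000 per well, and stimulators were splenocytes of FVB/N mice, 800000 per well, irradiated with 30 Gy. After 5 days the labelled responders were sorted by CD4 or CD8, and 300000 sorted cells gave the RNA for each Affymetrix Mouse430_2 array; the labels describe the sorting antibodies as raised against human CD4 and CD8. The groups were CD8 cells under blockade, CD4 cells under blockade, untreated CD8 cells and untreated CD4 cells, with 2 arrays in each. Blockade meant that anti-CD40L, anti-LFA-1 and CTLA4-Ig had been added, each at 50 µg; untreated cultures received no antibody, and every culture contained the allogeneic stimulators, so no resting T cells were measured. The labels give 4 mice per group without tying mice or cultures to arrays, so p-values reflect the spread from array to array, part or all of which may be technical.

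Granzyme B is a serine protease of the granules of cytotoxic lymphocytes; delivered into a target cell together with perforin, it cleaves proteins after aspartate and starts apoptosis. T cells make it only after activation, classically as CD8 effectors and also as cytotoxic CD4 cells. Serpins are suicide inhibitors that trap a protease on their reactive loop, and lymphocytes that carry granzymes also carry serpins inside the cell. In the mouse, Serpinb6b is an inhibitor of granzyme A, and Serpina3g (Spi2A) is an intracellular inhibitor of lysosomal cathepsins that is induced through NF-κB.

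The 3 genes belong to multigene clusters on 3 different chromosomes in the RefSeq annotation of GRCm38.p6, used here for names and for the order of protein-coding genes. Gzmb on chromosome 14 lies next to Gzmc, Gzmf, Gzmn, Gzmg, Gzmd and Gzme and then Ctsg, Mcpt8 and the mast cell proteases. Serpinb6b on chromosome 13 lies between Serpinb1c and Serpinb9, and Serpinb9 encodes the inhibitor of granzyme B. Serpina3g on chromosome 12 lies between Serpina3f and Serpina3i. The files do not say whether a probe set also binds transcripts of such relatives, so each value is that of the probe set.

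Lower values under blockade are how the members were found. The 250 bases before the RefSeq start of each gene were searched for motifs only as a description. Those of Gzmb and Serpina3g, in which matches to the motifs searched were found, are shown. Capitals mark matches on either strand, and both sequences read 5′ to 3′ along the gene. Gzmb is on the minus strand at chr14:56262335-56262584 and Serpina3g on the plus strand at chr12:104235897-104236146 (GRCm38.p6, RefSeq).
Gzmb: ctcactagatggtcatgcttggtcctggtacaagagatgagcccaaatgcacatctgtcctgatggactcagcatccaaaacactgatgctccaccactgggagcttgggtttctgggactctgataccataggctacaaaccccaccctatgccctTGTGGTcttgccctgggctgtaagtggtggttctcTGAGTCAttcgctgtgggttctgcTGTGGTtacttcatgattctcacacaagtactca
Serpina3g: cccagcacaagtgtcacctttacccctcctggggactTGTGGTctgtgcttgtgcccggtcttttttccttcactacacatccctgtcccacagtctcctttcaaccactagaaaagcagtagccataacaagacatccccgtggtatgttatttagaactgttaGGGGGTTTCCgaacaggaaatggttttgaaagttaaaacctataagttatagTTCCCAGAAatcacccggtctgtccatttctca

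In Gzmb the Runx core TGTGGT began at -93 and at -34 and the AP-1 motif TGANTCA at -58, counted in bases from the gene start. In Serpina3g the same Runx core began at -213, a κB consensus of 10 letters at -85 and the STAT motif TTCNNNGAA at -33. The window of Serpinb6b held no match, nor did any of the 3 windows match the CRE core TGACGT or the interferon response element (ISRE) consensus of 10 letters. No match overlapped another. Such matches are common: among 32851 windows of the same length, 14.0% held the Runx core, 6.75% the AP-1 motif, 7.02% the STAT motif, 7.25% the κB consensus, 6.47% the CRE core and 2.98% the ISRE. A match describes the letters only, and no binding was measured.

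**Figure D1:**
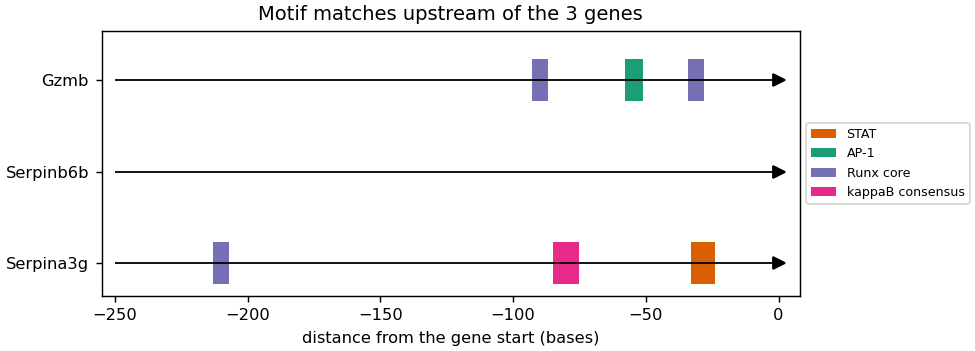
Motif matches in the 250 bases before the start of each gene; the x axis is the distance from the gene start in bases, and the bars are matches coloured by motif. Gzmb has 3 matches, Serpina3g has 3 and Serpinb6b has none.

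The deposited values are centred on the 8-array median of the probe set and are read here as log2 although the files do not state the base, so a value of 1 means 2-fold above that median. They give no absolute level, and the 3 genes cannot be ranked by abundance.

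Gzmb, the effector protease, was lower under blockade by more than any other feature in CD8 cells and by more than all but 1 in CD4 cells. In CD8 cells it stood at -2.15 and -2.44 under blockade, against 2.72 and 3.37 in untreated cells. In CD4 cells it stood at -2.51 and -3.54 under blockade, against 2.15 and 2.61 in untreated cells. The 4 blockade arrays all lay far below the 4 untreated ones, and the pair of CD4 blockade arrays lay furthest apart. The difference, blockade minus untreated, was -5.34 ± 0.34 in CD8 cells (SE, n = 2 and 2; 40.6-fold) and -5.41 ± 0.34 in CD4 cells (42.4-fold). In bulk RNA of sorted cells, fewer granzyme B-expressing cells and less RNA per cell cannot be told apart.

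Serpina3g, the cathepsin inhibitor, showed an intermediate difference. In CD8 cells it stood at -1.75 and -2.05 under blockade, against 0.98 and 0.98 in untreated cells. In CD4 cells it stood at -1.17 and -0.98 under blockade, against 1.96 and 2.16 in untreated cells. Within each treatment both CD8 arrays were below both CD4 arrays. Blockade minus untreated was -2.88 ± 0.13 in CD8 cells (SE, n = 2 and 2; 7.37-fold) and -3.13 ± 0.13 in CD4 cells (8.76-fold).

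Serpinb6b, the granzyme A inhibitor, had the smallest difference of the 3 genes. In CD8 cells it stood at -1.11 and -0.59 under blockade, against 0.58 and 0.77 in untreated cells. In CD4 cells it stood at -0.60 and -0.58 under blockade, against 0.77 and 1.46 in untreated cells. Blockade and untreated arrays did not overlap, whereas the subsets overlapped under blockade and met at 0.77 in untreated cultures. Blockade minus untreated was -1.53 ± 0.23 in CD8 cells (SE, n = 2 and 2; 2.88-fold) and -1.71 ± 0.23 in CD4 cells (3.26-fold). The smallest mean difference in the deposited list was 1.00, and the differences of all members were larger in size. How near the members lay to the p-value limit of the list was not checked.

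**Figure D2:**
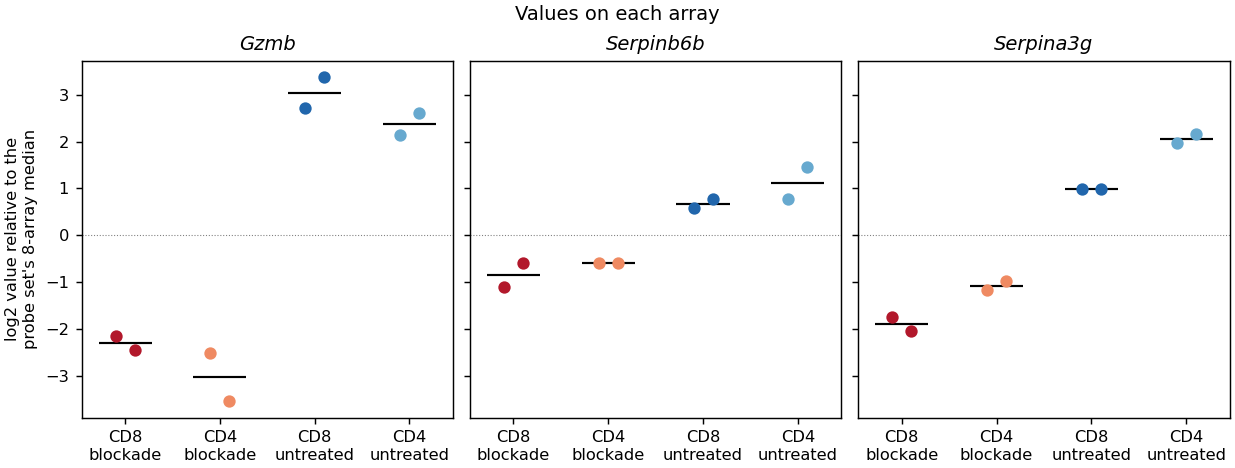
Value of each member on each of the 8 arrays (y axis, log2 relative to the probe set's 8-array median) by group; points are arrays and black bars are the means of 2 arrays. Blockade arrays lie below untreated ones for all 3 genes, and for Serpina3g both CD8 arrays lie below both CD4 arrays under either treatment.

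The replicate spread differed between the members and sets what can be resolved. The residual SD over the 4 groups was 0.472 for Gzmb, larger than that of 99.6% of features, 0.316 for Serpinb6b (larger than 97.8%) and 0.144 for Serpina3g, near the median of 0.123 over all features.

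The comparison of CD8 with CD4 cells is not the contrast on which the list was selected, but that selection may have favoured genes with small subset differences (below). The comparison was tested with limma (Benjamini-Hochberg adjustment over 44951 features). Serpina3g was lower in CD8 than in CD4 cells whether or not costimulation was blocked. Under blockade it averaged -1.90 ± 0.21 in CD8 cells and -1.07 ± 0.14 in CD4 cells (SD, n = 2 each), a limma difference of -0.83 ± 0.13 (SE; 95% interval -1.13 to -0.53; adjusted p = 0.014). In untreated cultures it averaged 0.98 in CD8 cells, where both arrays gave the same value to 2 decimals, and 2.06 ± 0.14 in CD4 cells, a limma difference of -1.08 ± 0.13 (SE; interval -1.38 to -0.78; adjusted p = 0.0031). These correspond to 1.78-fold and 2.11-fold lower values in CD8 cells.

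Of all features, 1.12% were lower and 1.08% higher in CD8 than in CD4 cells under blockade, and 1.42% were lower and 1.08% higher in untreated cultures; Serpina3g was the 1 of 3 members called, in both. Among the 289 named genes it had the difference ranked 3 from the lowest under blockade and 13 from the lowest in untreated cultures. An equal-variance selection of blockade against untreated arrays counts subset differences as spread, so the list may hold few genes with large ones. The untreated call was lost when arrays were quantile normalized (-0.59, limma adjusted p = 0.065), and both calls were lost without variance moderation. The blockade call was also lost with only the 4 blockade arrays (adjusted p = 0.063) or without CD4 blockade replicate 1 (0.052), CD4 blockade replicate 2 (0.13) or CD8 blockade replicate 2 (0.069, difference -0.68).

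Gzmb lay in the opposite direction, higher in CD8 than in CD4 cells, without passing the test. Under blockade it averaged -2.30 ± 0.20 in CD8 cells and -3.03 ± 0.73 in CD4 cells (SD, n = 2 each), and limma gave 0.73 ± 0.34 (SE; interval -0.04 to 1.50; adjusted p = 0.44). In untreated cultures it averaged 3.05 ± 0.46 in CD8 cells and 2.38 ± 0.32 in CD4 cells, and limma gave 0.67 ± 0.34 (SE; interval -0.10 to 1.44; adjusted p = 0.53). With quantile normalized arrays the difference was 0.10 under blockade (limma adjusted p = 0.93) and 1.17 in untreated cultures (0.065). Leaving out 1 array at a time gave 0.22 to 1.25 under blockade and 0.34 to 1.00 in untreated cultures. Within each treatment both CD8 arrays were above both CD4 arrays, but the nearest ones lay closer together than the 2 arrays of any group. They stood at -2.44 (CD8) and -2.51 (CD4) under blockade, and at 2.72 (CD8) and 2.61 (CD4) in untreated cultures. The intervals reach from about no difference to more than 2-fold.

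For Serpinb6b the subset difference was not resolved. The group means under blockade were -0.85 ± 0.37 in CD8 cells and -0.59 ± 0.01 in CD4 cells (SD, n = 2 each), with a limma difference of -0.26 ± 0.23 (SE; interval -0.79 to 0.28; adjusted p = 0.74). In untreated cultures they were 0.68 ± 0.13 in CD8 cells and 1.12 ± 0.49 in CD4 cells, with a limma difference of -0.44 ± 0.23 (SE; interval -0.97 to 0.10; adjusted p = 0.57). Without CD8 blockade replicate 1 the difference under blockade was 0.01.

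Averaging the subset difference over both treatments, a contrast added after the values were seen, narrowed the intervals. Serpina3g was lower in CD8 cells by a limma difference of -0.95 ± 0.09 (SE; interval -1.17 to -0.74; adjusted p = 4.6e-04), in the same direction on all 4 CD8 arrays against the CD4 arrays of the same treatment, and this call held in every alternative run. Gzmb differed by 0.70 ± 0.24 (interval 0.16 to 1.24; limma adjusted p = 0.18, or 0.042 without CD4 blockade replicate 1), and Serpinb6b by -0.35 ± 0.17 (interval -0.73 to 0.03; limma adjusted p = 0.37). In this contrast 2.61% of all features were lower and 2.03% higher in CD8 cells.

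**Figure D3:**
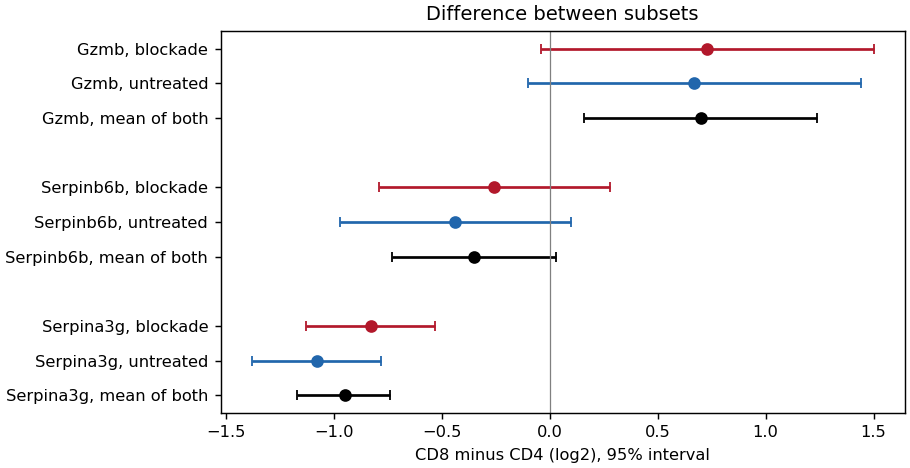
CD8 minus CD4 difference of each member (x axis, log2) under blockade, in untreated cultures and averaged over both; points are limma estimates and bars are 95% intervals. All 3 intervals of Serpina3g lie below 0, those of Gzmb lie mostly above 0, and those of Serpinb6b include 0.

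Whether the blockade difference itself depended on the subset was tested as an interaction, the difference in CD8 cells minus that in CD4 cells. No member passed. The limma interaction was 0.06 ± 0.47 for Gzmb (SE; interval -1.02 to 1.15; adjusted p = 1), 0.18 ± 0.33 for Serpinb6b (interval -0.57 to 0.94; adjusted p = 0.99) and 0.25 ± 0.19 for Serpina3g (interval -0.18 to 0.68; adjusted p = 0.98). Only 0.0578% of all features passed. The interval for Gzmb still allows the difference to vary about 2-fold between the subsets.

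Since the estimate for Gzmb was above 0 and those for the serpins below 0, of which only that of Serpina3g passed the test, the difference between 2 genes on the same array was also taken; it was chosen after the values were seen and is given without a test. Only changes in this quantity between arrays can be read, since each probe set has its own zero. Gzmb minus Serpina3g was -0.40 and -0.39 on the CD8 blockade arrays, against -1.34 and -2.57 on the CD4 blockade arrays. It was 1.74 and 2.39 on the untreated CD8 arrays, against 0.19 and 0.45 on the untreated CD4 arrays. Relative to Serpina3g, Gzmb was thus higher on both CD8 arrays than on both CD4 arrays within each treatment. That order follows from the separate values of the 2 genes, since Gzmb was higher and Serpina3g lower on both CD8 arrays. Within each subset Gzmb relative to Serpina3g was lower under blockade than in untreated cells, which follows from its larger blockade difference.

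Gzmb minus Serpinb6b followed the same order, at -1.04 and -1.86 on the CD8 blockade arrays against -1.91 and -2.96 on the CD4 blockade arrays. It was 2.14 and 2.60 on the untreated CD8 arrays against 1.38 and 1.14 on the untreated CD4 arrays. In this case the subsets under blockade were separated by only 0.05 at their nearest arrays, less than the spread within either group.

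**Figure D4:**
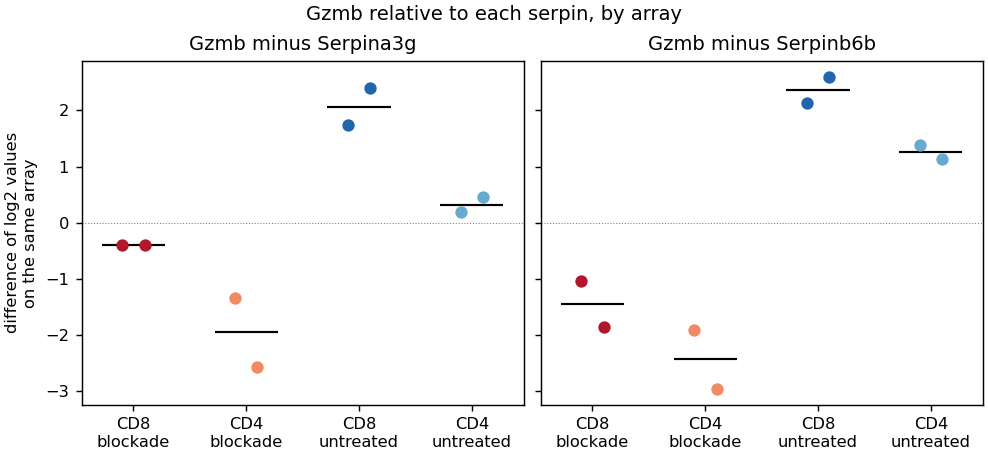
Difference between Gzmb and each serpin on the same array (y axis, log2) by group; points are arrays and bars are means of 2 arrays. Within each treatment the CD8 arrays lie above the CD4 arrays in both panels, and blockade arrays lie below untreated ones.

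Of other genes of the granule and serpin systems, few could be named. In a list of 28 serpins, 3 were named, and the one that is not a member was Serpine2 (protease nexin-1, an inhibitor of thrombin and other serine proteases). Serpine2 stood at -1.05 and -1.50 in CD8 cells under blockade, against 1.38 and 1.50 in untreated CD8 cells. In CD4 cells it stood at -0.80 and -1.26 under blockade, against 0.80 and 1.43 in untreated cells. All 3 serpins were called lower under blockade in CD8 and in CD4 cells, where 1.14% and 2.02% of all features were; since the list was chosen on that contrast, nothing is read from the count. Serpine2 did not share the subset difference of Serpina3g past the test (limma -0.24 ± 0.24 under blockade and 0.33 ± 0.24 in untreated cultures, CD8 minus CD4, adjusted p = 0.76 and 0.72).

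Gzmb was the only 1 of 10 granzymes that could be named, since only probe sets of the deposited list that carry 1 gene have names here. A granzyme not named was not on that list under a symbol of its own, and its values are not known. Of 15 genes of the lytic granule, including perforin and the granzyme-processing protease Ctsc, only Ctsh (cathepsin H, a lysosomal aminopeptidase) was named, and it was higher under blockade, by 1.24 ± 0.13 in CD8 cells and 1.17 ± 0.13 in CD4 cells. It is also found in B cells, whose markers differed in the same direction (below); their part in this difference was not tested. None of 14 cathepsins and cystatins or 11 effector transcription factors in the lists was named.

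Of the 30 protein-coding genes nearest to Gzmb in gene order, 15 on each side, 3 were named. All of them are serine proteases of mast cells, basophils or neutrophils. All were lower under blockade, the contrast on which nameable genes were selected. Ctsg (cathepsin G) stood at -1.39 and -1.47 in CD8 cells under blockade, against 1.39 and 1.70 in untreated CD8 cells, and its differences were -2.98 in CD8 and -2.91 in CD4 cells. Mcpt8 (a basophil protease) differed by -3.83 ± 0.35 in CD8 and -3.34 ± 0.35 in CD4 cells, and Cma1 (mast cell chymase) by -3.38 ± 0.16 and -2.63 ± 0.16. Cma1 was higher in CD8 than in CD4 cells in untreated cultures (0.87 ± 0.16, limma adjusted p = 0.023), the direction that Gzmb had. Of 15 alternatives, 6 lost that call. In the same comparison Mcpt8 and Ctsg differed by 0.05 ± 0.35 and 0.09 ± 0.12 and did not pass. No gene among the 30 nearest protein-coding genes of Serpinb6b or of Serpina3g was named.

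Markers of cells outside the sort gate are given for the arrays on which the members were measured. Genes could be named only from the list selected on blockade against untreated, so every marker named had to differ by treatment, and nothing is read from that. Of 15 mast cell and basophil markers, which some of these cells express beside granzyme B, 5 were named (Cpa3, Mcpt8, Fcer1a, Ms4a2 and Cma1). All 5 were called lower under blockade in CD4 cells, where 2.02% of all features were, and 4 in CD8 cells, where 1.14% were. Their mean lay between -1.62 and -1.53 on the CD8 blockade arrays, against 1.63 to 2.07 on the untreated CD8 arrays. It lay between -1.55 and -1.36 on the CD4 blockade arrays, against 1.35 to 1.57 on the untreated CD4 arrays. Of 14 neutrophil markers, 9 were named, with means of -1.52 to -0.96 on the CD8 blockade arrays against 1.00 to 1.80 on untreated CD8 arrays, and of -1.25 to -1.18 on the CD4 blockade arrays against 1.26 to 1.76 on untreated CD4 arrays. Of 15 B cell markers 12 were named, and they lay the other way, with means of 0.72 to 0.75 on CD8 blockade arrays against -0.89 to -0.73 on untreated CD8 arrays, and of 0.78 to 0.87 on CD4 blockade arrays against -0.87 to -0.75 on untreated CD4 arrays. Of 15 macrophage and dendritic cell markers 4 were named, with means of 0.28 to 0.55 on CD8 blockade arrays against -0.67 to -0.51 on untreated CD8 arrays, and of 0.45 to 0.63 on CD4 blockade arrays against -0.40 to -0.33 on untreated CD4 arrays; 1 of the 4 was lower and not higher under blockade in both subsets.

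The part of these cells in the blockade differences of the 3 members was not tested. Between subsets in untreated cultures, where Gzmb differed by 0.67, the mast cell and basophil markers varied. Cpa3 differed by 0.68 ± 0.20 (interval 0.23 to 1.13, limma adjusted p = 0.17) and Fcer1a by 0.55 ± 0.14 (interval 0.22 to 0.88, limma adjusted p = 0.12). Cma1 differed by 0.87, Mcpt8 by 0.05 ± 0.35 and Ms4a2 by -0.18 ± 0.23, and the median of the 5 was 0.55. Under blockade the 5 ranged from -0.45 to 0.19 with a median of -0.07, where Gzmb differed by 0.73. Of the 30 named markers, Cma1 and the B cell marker Cd72 were called in untreated cultures, both higher in CD8 cells, and none was called under blockade. Cd72 differed by 0.73 ± 0.11 (limma adjusted p = 0.010), and 6 of 15 alternatives lost the call. Of all features, 1.08% were higher and 1.42% lower in untreated CD8 cells, and 1.08% and 1.12% under blockade. The part of cells outside the sort gate in the subset differences of the members was not tested either. No natural killer cell marker and none of Cd4, Cd8a and the other T cell markers could be named, so the sorted subsets were not checked by name.

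Genes of the interleukin-2 and STAT5 response, a driver of granzyme B expression, were compared between subsets as well. Of 5 named members, 3 were lower in untreated CD8 than in untreated CD4 cells, as were 1.42% of all features. Il2ra (the interleukin-2 receptor alpha chain) differed by -2.21 ± 0.32, Socs2 by -2.64 ± 0.17 and Cish by -2.10 ± 0.16 (limma adjusted p = 0.0072, 6.8e-05 and 1.6e-04). Serpina3g lay in the same direction, and the Gzmb estimate, which did not pass, in the opposite one. Quantile normalization brought the differences of Il2ra, Socs2 and Cish to -1.25, -1.66 and -1.33, and 3 of 15 alternatives lost the call of Il2ra. Both Socs2 and Cish are cytokine-induced feedback inhibitors. Bcl2 and Ccnd2 did not pass (-0.26 and -0.13). Under blockade Socs2 alone was called (-1.08 ± 0.17, limma adjusted p = 0.013), where 1.12% of all features were lower. Of 15 alternatives, 5 lost the call. The median of the list was -2.10 in untreated cultures, where that of all features was 0.00. The part of this response in the values of the members was not tested.

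Of 16 named interferon-inducible genes, 5 were higher and none lower in CD8 than in CD4 cells under blockade, where Serpina3g was lower. Of all features, 1.08% were higher and 1.12% lower under blockade. Ifit3 differed by 1.59 ± 0.10, Socs1 by 1.27 ± 0.14, Gbp2 by 0.80 ± 0.09, Gbp6 by 0.66 ± 0.10 and Gbp3 by 0.61 ± 0.10 (limma adjusted p of 6e-05 to 0.020). The calls of Gbp3 and Gbp6 were each lost in 7 of 15 alternatives (quantile normalized, Gbp6 differed by 0.37 with a limma adjusted p of 0.21), those of Gbp2 and Socs1 in 1 each, and that of Ifit3 in none. In untreated cultures 1 was higher (Ifit3, 0.48) and 3 were lower (Cxcl10 -0.95, Gbp3 -0.63 and Ifit1 -0.60), with limma adjusted p of 0.014 to 0.049. There 1.08% of all features were higher and 1.42% lower. The calls of Gbp3, Ifit1, Ifit3 and Cxcl10 in untreated cultures were lost in 7, 11, 13 and 12 of 15 alternatives.

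The named genes closest to each member over the 8 arrays were found by the root mean square difference of their values, a description over arrays that share the blockade contrast. Closest to Gzmb were Cpa3 (mast cell carboxypeptidase) at 0.566, Iigp1 (an interferon-inducible GTPase) at 0.654, Penk (proenkephalin) at 0.923, Gbp6 at 0.973 and Fcer1a (a chain of the IgE receptor) at 1.01, where the median over 286 named genes was 2.11. Cpa3 stood at -2.60 and -2.56 in CD8 cells under blockade, against 2.45 and 2.86 in untreated CD8 cells, and at -1.90 and -2.49 in CD4 cells under blockade, against 2.04 and 1.90 in untreated CD4 cells. Cpa3 shared the lower values of Gzmb under blockade but was less low on CD4 blockade replicate 2, where Gzmb was at -3.54. Its CD8 minus CD4 difference was -0.39 ± 0.20 under blockade, against 0.73 ± 0.34 for Gzmb. In untreated cultures it was 0.68 ± 0.20, against 0.67 ± 0.34 for Gzmb, and none of these passed the test.

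Closest to Serpina3g were Scin (scinderin, an actin-severing protein) at 0.230, H2-T24 (a non-classical MHC class I gene) at 0.363, the interferon-inducible genes Ifit1 at 0.423 and Rtp4 at 0.437, and Top2a (DNA topoisomerase) at 0.456, with a median of 1.02. Scin shared the order of the 4 groups. It stood at -1.90 and -1.74 in CD8 cells and -1.11 and -1.08 in CD4 cells under blockade. In untreated cultures it stood at 1.37 and 1.08 in CD8 cells and 2.11 and 2.49 in CD4 cells, and CD8 minus CD4 was -1.08 ± 0.15 (limma adjusted p = 0.0062; 3 of 15 alternatives lost the call, and quantile normalization gave -0.58).

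Closest to Serpinb6b were genes of cell division: Spc25 (a kinetochore protein) at 0.141, Cdca5 (sororin, a cohesion factor) at 0.163, E2f8 (a cell cycle transcription factor) at 0.175 and Ttk (a spindle checkpoint kinase) at 0.180, followed by Anxa2 (annexin A2) at 0.198. The median was 0.516. Serpinb6b was at 0.77 and 1.46 on the untreated CD4 arrays. Spc25 was at 0.74 and 1.28, Ttk at 0.65 and 1.43 and E2f8 at 0.54 and 1.45 on the same arrays, so the higher value on replicate 2 was shared. On that array the hybridization and poly-A spike-ins had medians of -0.23 and -0.44, and on CD8 blockade replicate 1 they had medians of 0.91 and 0.79; on the other 6 arrays they lay between -0.18 and 0.19. Their part in the values of the members was not tested.

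**Figure D5:**
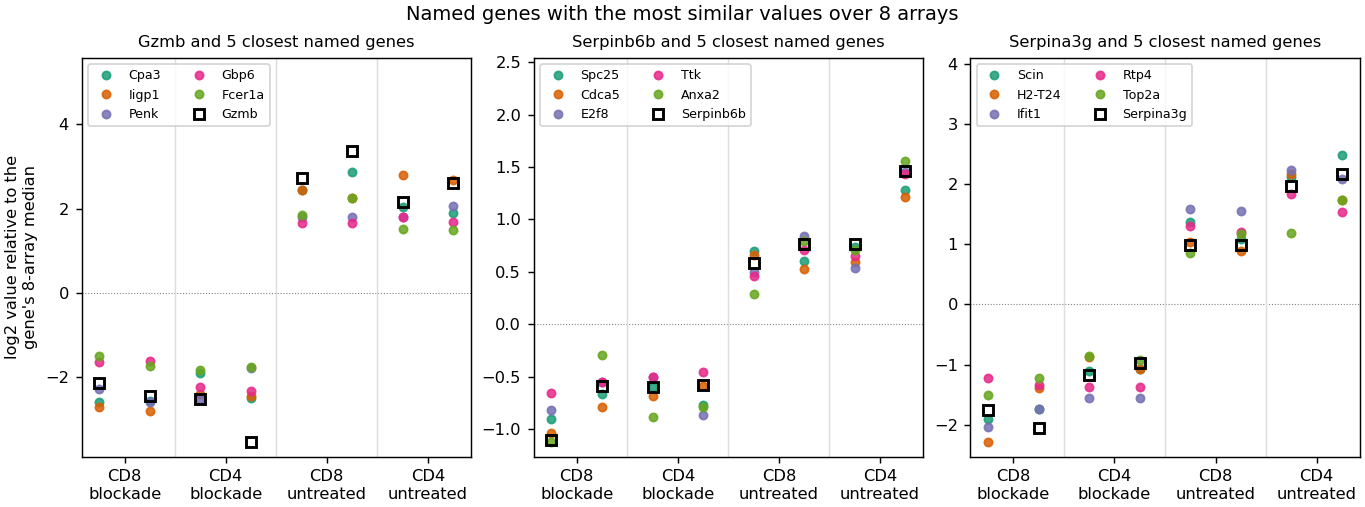
Each member (open squares) with the 5 named genes of the most similar values (dots) on the 8 arrays, replicate 1 left of replicate 2 in each group; the y axis is log2 relative to the gene's 8-array median. Gzmb reaches 3.37 and -3.54, beyond its closest genes on those arrays, whereas Serpinb6b and Serpina3g each lie within the range of theirs on all but 1 array.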

How the data were processed

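RNA of sorted T cells was measured on 8 arrays in 4 groups of 2, taken from the sample titles. The log2 values were deposited by the authors as differences from each probe set's 8-array median (45101 probe sets); the sources used here name no log base, summary or normalization, and arrays give no read depth, so the number of arrays limits the precision. Per the file headers, the second deposited file holds probe sets selected by an unpaired t-test with corrected p-values up to 0.05; its log2 values equalled those of the first file (largest difference 0). The members and all gene lists were chosen with earlier results of these data known.

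Gene names came from that list for probe sets with 1 gene, updated through RefSeq identifiers. The 64 control probe sets were left out and probe sets of 1 named gene were averaged, leaving 44951 features. limma 3.58.1 (R 4.3.3) was fitted with a mean per group and eBayes (4 residual and 4.48 prior degrees of freedom), two-sided, with Benjamini-Hochberg adjustment and a threshold of 0.05. On simulated data for CD8 minus CD4 in untreated cultures (44951 features), it recovered 77% of 100 changes of 1 log2 unit and 99% of 100 changes of 2, with 10 false calls. Those shares are over simulated features and need not hold for Gzmb and Serpinb6b, whose replicate spread exceeded that of most features. Genes named are the members, the list genes that could be named, and the 5 named genes closest to each member; neighbours on the chromosome were added after the values were seen. Alternatives were quantile normalization, robust or no moderation, array weights, subsets of arrays, a replicate block and leaving out arrays.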

Additional observations from a re-analysis of the deposited data

Results flagged for a closer look

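Gbp3, an interferon-inducible guanylate-binding protein compared above beside Serpina3g, was the 1 gene, among the members, their lists, their neighbours and their closest genes, whose blockade difference passed the test of a difference between the subsets. Blockade minus untreated was -1.95 ± 0.10 in CD8 cells and -3.18 ± 0.10 in CD4 cells, and the limma interaction, CD8 minus CD4, was 1.23 ± 0.15 (SE, n = 2 arrays per group; adjusted p = 0.041). The call was lost in 12 of 14 alternatives, over which the interaction ranged from 0.73 (quantile normalization) to 1.32 and the adjusted p reached 0.48. It was lost whichever single array was left out, without both arrays of unusual spike-ins (1.29, adjusted p = 0.48) and with the replicate block (adjusted p = 0.075).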

How the results depend on the processing

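Serpina3g kept its lower value in CD8 cells in all alternatives run, with the calls lost named above. Without moderation its adjusted p was 0.16 under blockade (-0.83) and 0.10 in untreated cultures (-1.08), and with only the 4 blockade arrays the difference stayed -0.83. Quantile normalization, applied to values that were already centred, gave -0.59 in untreated cultures. It turned all 3 interactions, which had not passed, to -1.06 (Gzmb), -0.04 (Serpinb6b) and -0.18 (Serpina3g), and changed blockade minus untreated to -2.69 for Serpina3g in CD8 cells and to -4.13 for Gzmb and -2.51 for Serpina3g in CD4 cells; the cause was not tested. Without both arrays of unusual spike-ins, the Serpinb6b subset difference under blockade was 0.01, the interactions of Gzmb and Serpina3g were -0.31 and 0.00, and blockade minus untreated was -3.03 for Serpina3g in CD8 cells and -1.36 for Serpinb6b in CD4 cells.

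Features called between subsets numbered 990 under blockade, 1123 in untreated cultures and 2085 for the mean of both, and 26 for the interaction. Without moderation these were 304, 354, 1016 and 1. Without both arrays of unusual spike-ins they were 392, 460, 954 and 0 (limma; the interaction had 2113 features at an unadjusted p under 0.05, against 2243 with all arrays). The interaction called 17 with quantile normalization, and only the 4 blockade arrays called 628. Leaving out 1 array at a time gave 505 to 884, 551 to 1070, 1383 to 1849 and 5 to 26, with fewer arrays in each fit.

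Leaving out 1 array at a time gave subset differences under blockade of 0.22 to 1.25 for Gzmb, -0.52 to 0.01 for Serpinb6b and -0.98 to -0.68 for Serpina3g. In untreated cultures they were 0.34 to 1.00, -0.79 to -0.09 and -1.18 to -0.98, and for the mean of both 0.44 to 0.96, -0.52 to -0.17 and -1.03 to -0.88. Interactions ranged over -0.45 to 0.58, -0.17 to 0.53 and 0.10 to 0.40. Blockade minus untreated ranged over -5.67 to -5.02, -1.79 to -1.26 and -3.03 to -2.73 in CD8 cells, and -5.92 to -4.89, -2.05 to -1.36 and -3.23 to -3.03 in CD4 cells. Of 17 calls of other named genes, 94 of 254 repeats under an alternative lost the call and 0 changed sign. The members have 1 probe set each, so separate probe sets could not be compared. With the replicate block Serpina3g gave limma adjusted p of 0.028 under blockade and 0.0072 in untreated cultures, and no member's call changed. Replicate differences of the groups correlated at -0.030 to 0.077 over all features. Such correlations cannot show whether the numbers pair the arrays, and the labels do not say.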
